A study of Mus musculus with 5 samples.

Results

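The 5 co-cultures were arranged here as 3 arrays against 2. The bone marrow and virus arrays (Fos+/+ bone marrow, infected Fos-/- spleen cells with a deltaNFAT virus, and infected Fos-/- spleen cells with a GFP virus) were compared with the uninfected spleen arrays (Fos+/+ spleen and Fos-/- spleen). The columns were taken by sample title, and together they make up 5 of the 5 arrays of the series, 1 array per condition. In every dish haematopoietic cells had been grown together with a stromal line, ST2-T, for 6 days under dexamethasone and 1,25-dihydroxyvitamin D3, and the whole dish was harvested, so each array reads total RNA of stromal and haematopoietic cells together. The labels describe neither the deltaNFAT construct, nor the amount of virus, nor the animals' age and strain, and no probe set used here reads GFP, a fluorescent protein from jellyfish, so the infection was not checked.

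Osteoclasts are bone-resorbing cells that form by fusion of myeloid precursors. Both spleen and bone marrow hold such precursors, and in co-cultures of this kind stromal cells treated with vitamin D and a glucocorticoid supply the cytokines RANKL and M-CSF that drive the process. Fos, a partner in the AP-1 dimer, is needed for this step, and Nfatc1 is an NFAT transcription factor that acts downstream of it. Marrow also holds many more granulocyte precursors than adult spleen, and infection by a virus can switch on interferon-stimulated genes.

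The division into 3 and 2 arrays does not follow Fos genotype, since each side holds both Fos+/+ and Fos-/- cells. Fos itself read 614, 581 and 607 in the bone marrow, deltaNFAT and GFP arrays, against 849 and 426 in the Fos+/+ and Fos-/- spleen arrays, so the sets overlapped and the value in uninfected Fos-/- spleen was the lowest. The stromal cells carry their own Fos, and whether the probes fall in the deleted stretch was not determined. Nfatc1 read 325 in bone marrow, 82.7 with deltaNFAT and 23.4 with GFP, against 752 in Fos+/+ spleen and 23.5 in Fos-/- spleen, and it was low in both Fos-/- arrays without deltaNFAT and high in both Fos+/+ arrays. The sets differ in tissue, in infection and possibly in how the arrays were processed, and these cannot be told apart with 1 array per condition. No test was run, because the arrays of a side are of different conditions and not replicates, and no value below has a replicate error.

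Values are array intensities on a linear scale. Intensities under 20 were treated as 20, the floor, because each array holds 20.3 to 22.4% of probe sets at 0 or below. A probe set, the group of probes that reads 1 transcript, was counted when all arrays of one side exceeded all arrays of the other and each array of the brighter side reached 40. The gap is the lowest value of the brighter side over the highest value of the dimmer side. It is written "at least" where the highest value of the dimmer side lay at or under the floor. Of 12488 probe sets, 10833 had 1 gene symbol and were not controls. Of these, 6562 reached 40 in at least 1 array.

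The array controls separated the same sets. RNAs foreign to the mouse are spiked into the hybridisation mix as technical controls. Their amounts are meant to be equal between arrays, but the amounts used here were not given. Of the 9 probe sets for these RNAs, 6 lay above the floor on all arrays, and all 6 were higher in all 3 bone marrow and virus arrays. The ratio of the set means ran from 1.13 to 1.503 with a median of 1.26. CreX-3, the brightest, read 2354, 2443 and 2596 in the bone marrow, deltaNFAT and GFP arrays, against 2109 and 1947 in the Fos+/+ and Fos-/- spleen arrays. BioDn-5 read 362, 246 and 308 in the bone marrow, deltaNFAT and GFP arrays, against 181 and 222 in the Fos+/+ and Fos-/- spleen arrays. The other 3 spiked probe sets were under the floor on every array. Of 27 control probe sets of all kinds above the floor on all arrays, 13 were higher in all 3 and 2 were lower. The percentage of probe sets above the floor was 62.1, 60.7 and 59.6% in the bone marrow, deltaNFAT and GFP arrays and 58.2 and 58.6% in Fos+/+ and Fos-/- spleen. Signal ratios of 3′ over 5′ probe sets, a measure of RNA length, overlapped between the sets for Actb and for Gapdh. For the control probe sets of the transferrin receptor the ratio did not overlap, at 3.31, 3.04 and 6.11 in the bone marrow, deltaNFAT and GFP arrays, against 2.95 and 2.11 in the Fos+/+ and Fos-/- spleen arrays. Its 5′ probe set was dim, at 79.4 in bone marrow, 75.7 with deltaNFAT and 30.7 with GFP, against 30.3 in Fos+/+ spleen and 23.6 in Fos-/- spleen. With GFP and in both spleen arrays the ratio thus divides by a value near the floor. The part of these technical differences in the gene results was not tested.

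**Figure D1:**
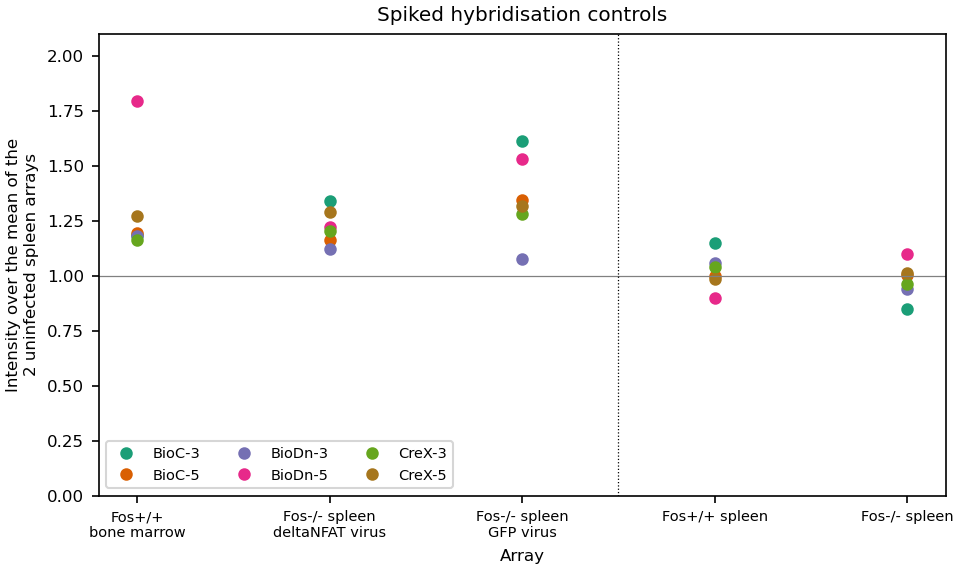
Spiked hybridisation controls in each array. Each point is the intensity of 1 of the 6 spiked probe sets above the floor, divided by its mean over the 2 uninfected spleen arrays (linear axis), and the dotted line parts the bone marrow and virus arrays on the left from uninfected spleen on the right. All 6 were higher in all 3 arrays on the left, with ratios of set means from 1.13 to 1.503.

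Among the 6562 probe sets, 1161 (17.7%) were higher in all 3 bone marrow and virus arrays and 1184 (18.0%) were lower. These are similar numbers, but the gaps were not of similar size. With a gap of 2-fold or more, 265 probe sets (4.04%) of 246 genes were higher and 30 (0.457%) of 30 genes were lower. A gap of 4-fold or more was seen for 54 of the 265 and for 5 of the 30. The counts depend on the scale. With each array scaled to the spiked controls, which moves the median difference over all genes from -0.03 to -0.37 (log2), 587 probe sets were higher and 2696 lower, and 162 higher and 83 lower by 2-fold. On that scale 17.9% of the counted probe sets were higher, against 49.5% on the scale of equal mean intensity, and at 2-fold the share was 66.1%, against 89.8%. Of the 265, 247 were still higher in all 3 arrays on the spiked scale and 0 were lower, while all 30 were still lower by 2-fold.

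**Figure D2:**
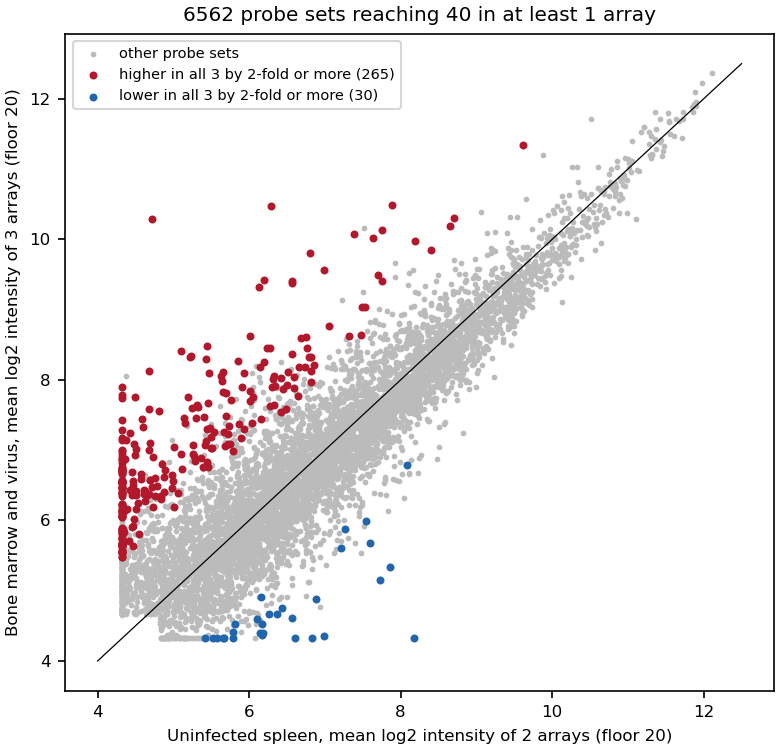
Mean log2 intensity of the 3 bone marrow and virus arrays (vertical axis) against that of the 2 uninfected spleen arrays (horizontal axis) for 6562 probe sets, after the floor of 20. Red points are the 265 probe sets higher in all 3 by 2-fold or more, blue points the 30 lower by 2-fold or more, and the line marks equal values. Many red points stand at the floor in spleen.

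Many of the 265 were dim in spleen. In 90 of them both uninfected spleen arrays were at or under the floor, and 64 reached 200 in each of the 3 bone marrow and virus arrays. Each of the 3 can also be set against the uninfected spleen of its own genotype, where deltaNFAT and GFP share the Fos-/- spleen array. For the 265 the median ratio was 3.44-fold for bone marrow over Fos+/+ spleen, 3.50-fold for deltaNFAT over Fos-/- spleen and 3.49-fold for GFP over Fos-/- spleen. These ratios use the contrast that chose the probe sets and describe them only. For the 30 lower probe sets the median log2 ratios were -1.65, -1.54 and -1.60 in bone marrow, deltaNFAT and GFP over the spleen of the same genotype. At the threshold itself, the higher probe sets of Golim4 and Sucla2 were just inside with gaps of 2.004-fold and 2.001-fold, and those of Zc3h15 and Prkd3 just outside, both at 1.995-fold. On the lower side Cdc42ep4 and Snapc2 were just inside at 2.02-fold and 2.01-fold, and Bag3 and Rap1gap just outside at 1.98-fold and 1.97-fold.

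Ogn, which encodes osteoglycin, a small leucine-rich proteoglycan of connective tissue matrix, had the largest gap. One probe set read 869.8, 1397 and 1619.5 in the bone marrow, deltaNFAT and GFP arrays, against 13.3 and 34.5 in the Fos+/+ and Fos-/- spleen arrays, a gap of 25.2-fold. Its other probe set read 1111 in bone marrow, 1572 with deltaNFAT and 1667 with GFP, against 62.1 in Fos+/+ spleen and 99.1 in Fos-/- spleen, a gap of 11.2-fold. Both arrays of spleen were thus low on both probe sets, and bone marrow was the lowest of the 3 high arrays on both. Angpt1, a secreted ligand of the Tie2 receptor made by mesenchymal cells, read 209, 262 and 402 in the bone marrow, deltaNFAT and GFP arrays, against 25.8 and 25.4 in the Fos+/+ and Fos-/- spleen arrays, a gap of 8.1-fold. Kitl, the ligand of the Kit receptor, made by stromal cells and used by haematopoietic progenitors, read 675 in bone marrow, 639.9 with deltaNFAT and 687 with GFP, against 87 in Fos+/+ spleen and 104 in Fos-/- spleen, a gap of 6.16-fold. All 3 genes are typical of stromal rather than myeloid cells. Their levels separated the sets although the same ST2-T cells were used in every dish. In whole dishes, fewer cells of a type and less RNA per cell cannot be told apart.

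Of the matrix genes that stromal fibroblasts share, most were counted in neither direction on this scale. Of 28 measured members of the fibroblast and matrix list, 1 was higher, 2 were lower and 25 were counted in neither direction. On the scale of the spiked controls 1 was higher and 16 (57.1%) were lower, against 37.2% lower over all genes measured. Without Fos+/+ spleen 14 (50%) were lower, against 28.2% of all genes. Without Fos-/- spleen 7 (25%) were higher, near the 23.8% of all genes. Col1a1, the main collagen of bone, read 3416, 3853 and 4186 in the bone marrow, deltaNFAT and GFP arrays, against 3861 and 3778 in the Fos+/+ and Fos-/- spleen arrays, and the sets overlapped. Lox, the enzyme that crosslinks collagen, was the higher one, with 994 in bone marrow, 1105 with deltaNFAT and 1164 with GFP, against 451 in Fos+/+ spleen and 701 in Fos-/- spleen. The lower pair were chains of collagen VI, a filament collagen of the matrix around cells. Col6a2 read 164, 87.2 and 114 in the bone marrow, deltaNFAT and GFP arrays, against 290.2 and 438 in the Fos+/+ and Fos-/- spleen arrays, a gap of 1.77-fold, and Col6a1 read 775 in bone marrow, 659 with deltaNFAT and 717 with GFP, against 964 in Fos+/+ spleen and 1289 in Fos-/- spleen. Summed over the list the intensity was between 22657 and 24351 in the bone marrow and virus arrays and between 22557 and 26415 in uninfected spleen, so the totals overlapped.

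**Figure D3:**
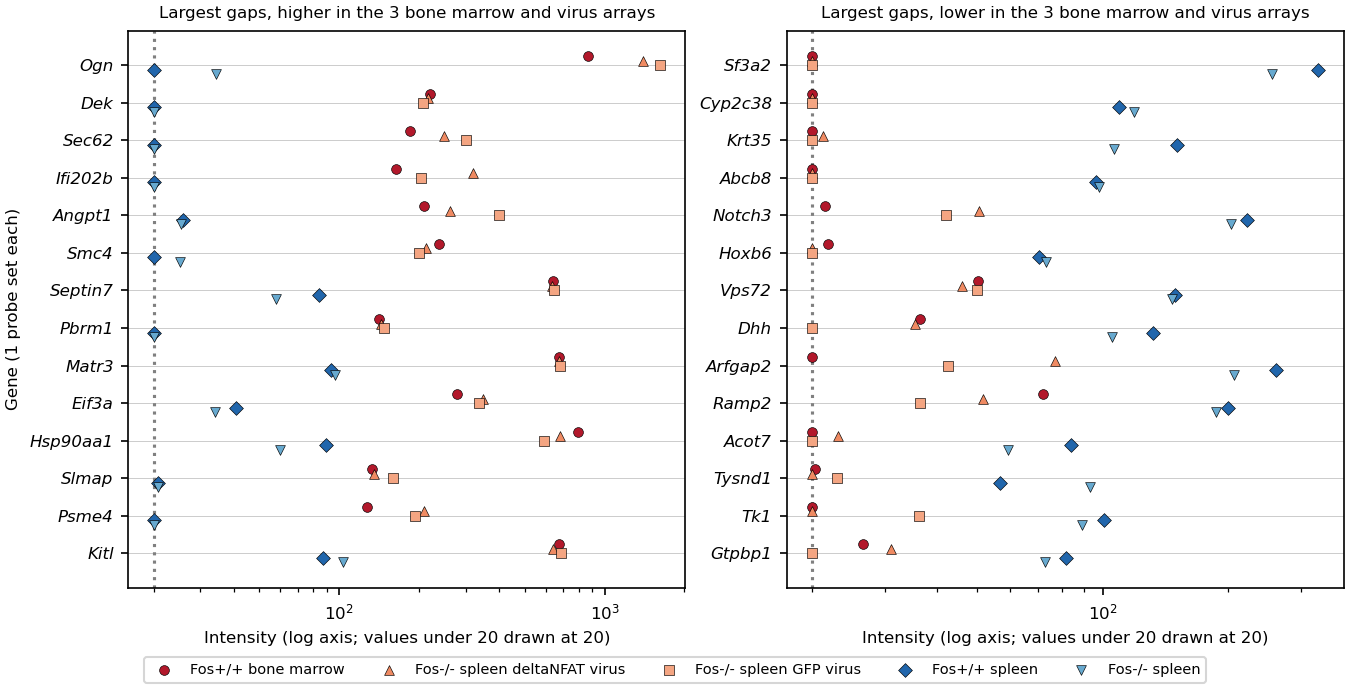
Intensity in each of the 5 arrays (log axis, values under the floor of 20 drawn at 20) of the 14 genes with the largest gaps in each direction, 1 probe set per gene. On the left the 3 bone marrow and virus arrays (red and orange) lie to the right of both uninfected spleen arrays (blue), and in the panel on the right they lie to the left of them. Ogn shows the widest gap, 25.2-fold.

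Several of the other genes with the largest gaps encode nuclear proteins. Dek, a chromatin-binding protein, read 219.8, 217 and 207 in the bone marrow, deltaNFAT and GFP arrays, against 18.5 and 16.2 in the Fos+/+ and Fos-/- spleen arrays, and was at least 10.4-fold higher. Smc4, a subunit of the condensin complex that compacts chromosomes, read 239 in bone marrow, 212 with deltaNFAT and 200.4 with GFP, against 15.7 in Fos+/+ spleen and 25.2 in Fos-/- spleen, a gap of 7.95-fold. Pbrm1, a subunit of a SWI/SNF chromatin remodelling complex, was at least 7.09-fold higher on the probe set with the largest gap. That one read 142, 144 and 148 in the bone marrow, deltaNFAT and GFP arrays, against 5.9 and 13.8 in the Fos+/+ and Fos-/- spleen arrays. A further Pbrm1 probe set had a gap of 4.56-fold, and the remaining pair was dim, with 1 of the pair under the floor in bone marrow. Matr3, a nuclear matrix protein that binds RNA, read 676.3 in bone marrow, 675.9 with deltaNFAT and 678 with GFP, against 93.5 in Fos+/+ spleen and 96.6 in Fos-/- spleen, a gap of 6.997-fold. The suffix of this Matr3 probe set marks it as less specific. Within each side its arrays were almost equal, and its other probe sets were at least 3.91-fold and at least 2.42-fold higher.

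Others of the largest gaps belong to genes that act in the cytoplasm or in membranes. Septin7, a filament-forming GTPase, read 637, 636 and 647 in the bone marrow, deltaNFAT and GFP arrays, against 84 and 57.9 in the Fos+/+ and Fos-/- spleen arrays, a gap of 7.57-fold. Slmap, a tail-anchored membrane protein, read 133 in bone marrow, 135 with deltaNFAT and 160.0 with GFP, against 20.7 in Fos+/+ spleen and 20.8 in Fos-/- spleen, a gap of 6.38-fold. Psme4, an activator that caps the proteasome, was at least 6.35-fold higher, with 127, 208 and 194 in the bone marrow, deltaNFAT and GFP arrays, against 17.3 and 15.8 in the Fos+/+ and Fos-/- spleen arrays. Sec62, part of the channel that moves proteins into the endoplasmic reticulum, read 184 in bone marrow, 248 with deltaNFAT and 300.2 with GFP, against -15.9 in Fos+/+ spleen and 16.1 in Fos-/- spleen on a probe set whose suffix marks it as less specific, a gap of at least 9.22-fold. Its unsuffixed probe set was at least 3.33-fold higher. Septin7 and Matr3 lay above the floor in both spleen arrays, and Dek and Psme4 at or under it.

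Some genes outside the naming rule, picked after their values were seen, show the same form at higher intensity or on more than 1 probe set. Ncl, the nucleolar protein nucleolin, read 1245, 971 and 1038 in the bone marrow, deltaNFAT and GFP arrays, against 227 and 123 in the Fos+/+ and Fos-/- spleen arrays. Ddx3x, an RNA helicase, had 2 probe sets with gaps of 5.53-fold and 3.93-fold. Stag2, a cohesin subunit, was 5.73-fold higher on 1 probe set, which read 257 in bone marrow, 274 with deltaNFAT and 289.5 with GFP, against 43.8 in Fos+/+ spleen and 44.9 in Fos-/- spleen. Ptprc, the leukocyte surface phosphatase CD45 that marks haematopoietic cells, read 80.5, 119.8 and 109 in the bone marrow, deltaNFAT and GFP arrays, against 0.5 and -5.7 in the Fos+/+ and Fos-/- spleen arrays, so that this marker was at or under the floor in both spleen co-cultures. Other leukocyte genes were bright in those same arrays. Csf1r, the M-CSF receptor of macrophages, read 1255 in bone marrow, 1291 with deltaNFAT and 1486 with GFP, against 1509.9 in Fos+/+ spleen and 1469 in Fos-/- spleen, and the sets overlapped.

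Genes lower by 2-fold in all 3 bone marrow and virus arrays were fewer than those higher by 2-fold. Only 4 of the 30 reached 200 in both uninfected spleen arrays. Notch3, a receptor found on smooth muscle and pericytes, was the clearest, with 21.5, 50.4 and 41.9 in the bone marrow, deltaNFAT and GFP arrays, against 222 and 203 in the Fos+/+ and Fos-/- spleen arrays, a gap of 4.03-fold. Arfgap2, which regulates vesicle coats at the Golgi, read -7.2 in bone marrow, 77 with deltaNFAT and 42.4 with GFP, against 262 in Fos+/+ spleen and 207 in Fos-/- spleen, a gap of 2.68-fold. Ramp2, which pairs with the calcitonin receptor-like receptor, read 72, 51.7 and 36.3 in the bone marrow, deltaNFAT and GFP arrays, against 199.6 and 188 in the Fos+/+ and Fos-/- spleen arrays, a gap of 2.61-fold. Vps72, a subunit of complexes that place a histone variant, read 50.2 in bone marrow, 46 with deltaNFAT and 50.004 with GFP, against 149 in Fos+/+ spleen and 147 in Fos-/- spleen, a gap of 2.93-fold. Abcb8, a transporter of the mitochondrial inner membrane, was at least 4.83-fold lower, with -11.8, 19.3 and -7.2 in the bone marrow, deltaNFAT and GFP arrays, against 96.5 and 97.8 in the Fos+/+ and Fos-/- spleen arrays.

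Several of the lower calls rested on 1 probe set while another overlapped. Sf3a2, a splicing factor, had the largest lower gap, at least 12.7-fold, on a suffixed probe set that read -101 in bone marrow, -1 with deltaNFAT and -80.7 with GFP, against 330.2 in Fos+/+ spleen and 255 in Fos-/- spleen. Another Sf3a2 probe set read 167, 366 and 403 in the bone marrow, deltaNFAT and GFP arrays, against 376 and 281 in the Fos+/+ and Fos-/- spleen arrays and overlapped. Dhh, a hedgehog ligand, was 2.89-fold lower on 1 probe set and overlapped on the other. Gtpbp1 behaved likewise, with a gap of 2.35-fold on 1 probe set only. Of the 30 genes, 5 had several probe sets reaching 40, and in each of the 5 at least 1 other probe set was not counted as lower. None of these others was higher in all 3 arrays. Of the 246 higher genes, 61 had several. All were higher by 2-fold in 16 of these, all were higher in 40, and in 4 (Ddx50, Ifi204, Mtx1 and Usp15) another probe set was lower in all 3 arrays.

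The counts for gene lists were read through the brightest probe set of each gene. Of 6397 genes measured above the floor, 971 (15.2%) were higher and 1049 (16.4%) were lower in all 3 bone marrow and virus arrays, 225 (3.52%) and 26 (0.406%) by 2-fold. The median difference of set means over all genes was -0.03 on the log2 scale. On the spiked scale 7.85% of all genes were higher and 37.2% lower, and the list counts given on that scale are to be read beside these shares. The lists were chosen with earlier results of these data known.

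Granule genes of neutrophils and their precursors had the highest median of the 38 lists, 1.28 on the log2 scale, and 0.95 on the spiked scale. Of 16 measured members, 9 were higher, 0 were lower and 7 were counted in neither direction. S100a9, an abundant calcium-binding protein of neutrophils, read 1791 in bone marrow, 1077 with deltaNFAT and 1524 with GFP, against 134 in Fos+/+ spleen and 416 in Fos-/- spleen, a gap of 2.59-fold. Chil3, a chitinase-like protein of myeloid cells, read 2816, 2547 and 2409.6 in the bone marrow, deltaNFAT and GFP arrays, against 567 and 1095 in the Fos+/+ and Fos-/- spleen arrays, a gap of 2.2-fold. Bone marrow was the highest array for both, and Fos-/- spleen stood above Fos+/+ spleen. Mpo, the myeloperoxidase stored in primary granules, read 243 in bone marrow, 82.5 with deltaNFAT and 79.5 with GFP, against 9.1 in Fos+/+ spleen and -1.5 in Fos-/- spleen, and was at least 3.98-fold higher. Lcn2, an iron-binding granule protein, read 885, 402 and 639 in the bone marrow, deltaNFAT and GFP arrays, against 129 and 257 in the Fos+/+ and Fos-/- spleen arrays. The granule proteins Ltf and Ngp were also higher, with gaps of 1.37-fold and 1.3-fold, and Camp had a gap of 1.05-fold that was lost on the spiked scale. Elane, the neutrophil elastase, read 453 in bone marrow, 107 with deltaNFAT and 116 with GFP, against 109 in Fos+/+ spleen and 115 in Fos-/- spleen, and overlapped. Summed over the list the intensity was 13133, 7901 and 10035 in the bone marrow, deltaNFAT and GFP arrays, against 2369 and 4826 in Fos+/+ and Fos-/- spleen.

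The order within the granule list differs among the 3 arrays. Over the spleen of the same genotype, the median log2 ratio was 2.23 in bone marrow, 0.39 with deltaNFAT and 0.83 with GFP, the last pair sharing 1 spleen array. These ratios have different denominators. Fos+/+ spleen, used only for bone marrow, had a summed list intensity of 2369, against 4826 in Fos-/- spleen. In intensity, bone marrow was the highest array for each of S100a9, Chil3, Mpo and Lcn2. The virus arrays lay between bone marrow and both uninfected spleen arrays for these genes.

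Macrophage genes were for the most part counted in neither direction. Of 24 measured 6 were higher and 0 lower, with a median of 0.19, which was -0.18 on the spiked scale, where 2 were higher and 6 lower. Msr1, a scavenger receptor that takes up modified lipoproteins, read 299, 335 and 295 in the bone marrow, deltaNFAT and GFP arrays, against 50.8 and 66 in the Fos+/+ and Fos-/- spleen arrays, a gap of 4.47-fold. Mrc1, the mannose receptor, read 596 in bone marrow, 1140.3 with deltaNFAT and 1045 with GFP, against 58.1 in Fos+/+ spleen and 214 in Fos-/- spleen, a gap of 2.78-fold. Fos-/- spleen was above Fos+/+ spleen for both. Mpeg1, the pore-forming perforin-2 of macrophages, read 935, 895 and 984 in the bone marrow, deltaNFAT and GFP arrays, against 579 and 808 in the Fos+/+ and Fos-/- spleen arrays, a gap of 1.11-fold. Lpl, lipoprotein lipase, had a gap of 1.21-fold that was lost on the spiked scale. Apoe, a lipid carrier, read 1964, 3999 and 4774 in the bone marrow, deltaNFAT and GFP arrays, against 958 and 2219 in the Fos+/+ and Fos-/- spleen arrays, and C1qc, a complement chain, read 2292 in bone marrow, 2865 with deltaNFAT and 3457 with GFP, against 2059 in Fos+/+ spleen and 3133 in Fos-/- spleen. Both overlapped.

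Osteoclast genes did not separate the sets in the main count. None of 14 measured osteoclast genes was counted as higher or lower in all 3 arrays, and the median was -0.43 (log2). With a floor of 10, or with median scaling, 1 of the 14 was higher, and on the spiked scale 1 was lower. Ctsk, the bone-degrading protease cathepsin K, read 2495, 372 and 79.3 in the bone marrow, deltaNFAT and GFP arrays, against 2862 and 61.3 in the Fos+/+ and Fos-/- spleen arrays. Acp5, the acid phosphatase used to stain osteoclasts, read 2579 in bone marrow, 964 with deltaNFAT and 239 with GFP, against 3837 in Fos+/+ spleen and 462 in Fos-/- spleen. Bone marrow and Fos+/+ spleen were high and the 3 Fos-/- arrays were lower, with deltaNFAT between them. Summed over the list the intensity was 13168 in bone marrow, 4703 with deltaNFAT and 2457.5 with GFP, against 17421 in Fos+/+ spleen and 2873 in Fos-/- spleen. The list median therefore follows which array is left out, at 0.82 without Fos+/+ spleen and -1.84 without Fos-/- spleen.

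Interferon-stimulated genes were high with virus and low in bone marrow for most members. The median was 0.80 (log2, 0.53 on the spiked scale), with 4 of 28 measured genes higher and 0 lower. With the bone marrow array left out, 19 of the 28 (67.9%) were higher in both virus arrays, against 21.0% of all genes measured in the same setting. Isg15, a ubiquitin-like antiviral protein, read -48.4, 367 and 143 in the bone marrow, deltaNFAT and GFP arrays, against -2.1 and -62.8 in the Fos+/+ and Fos-/- spleen arrays, and Ifit1, which binds viral RNA, read -25 in bone marrow, 189 with deltaNFAT and 65.4 with GFP, against -2.4 in Fos+/+ spleen and -5.4 in Fos-/- spleen. Both were at or under the floor in bone marrow and in both spleen arrays. Ifi202b and Ifi204, DNA-binding proteins of 1 interferon-inducible family, were high in bone marrow too. Ifi202b read 164, 318 and 203 in the bone marrow, deltaNFAT and GFP arrays, against 19.9 and 3.4 in the Fos+/+ and Fos-/- spleen arrays, at least 8.18-fold higher. On a suffixed, less specific probe set, Ifi204 read 210.4 in bone marrow, 597 with deltaNFAT and 367 with GFP, against 60.1 in Fos+/+ spleen and 31.3 in Fos-/- spleen, a gap of 3.5-fold. Another Ifi204 probe set was lower in all 3, with 123, 109 and 93 in the bone marrow, deltaNFAT and GFP arrays, against 137 and 153 in the Fos+/+ and Fos-/- spleen arrays. A further Ifi204 probe set was dim, with 33.1, 73.3 and 25.9 in the bone marrow, deltaNFAT and GFP arrays, against 7.4 and 11.3 in the Fos+/+ and Fos-/- spleen arrays. B2m, the light chain of MHC class I, read 1523 in bone marrow, 2460.0 with deltaNFAT and 2407 with GFP, against 1107 in Fos+/+ spleen and 1358 in Fos-/- spleen, a gap lost on the spiked scale.

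Proteins that handle RNA moved in both directions. Of 31 measured splicing and RNA-binding genes, 14 were higher and 4 lower with a median of 0.24. On the spiked scale 7 (22.6%) were higher and 13 (41.9%) lower with a median of -0.12, against 7.85% and 37.2% of all genes. Clk1, a kinase of splicing factors that also regulates its own splicing, read 292, 351 and 422 in the bone marrow, deltaNFAT and GFP arrays, against 85.6 and 138 in the Fos+/+ and Fos-/- spleen arrays, a gap of 2.11-fold. Its relative Clk4 read 109 in bone marrow, 98.5 with deltaNFAT and 120.4 with GFP, against 39.2 in Fos+/+ spleen and 44.8 in Fos-/- spleen, a gap of 2.2-fold. Ddx5, an RNA helicase, read 434, 426 and 498 in the bone marrow, deltaNFAT and GFP arrays, against 181 and 226 in the Fos+/+ and Fos-/- spleen arrays, a gap of 1.89-fold. Hnrnpu, which binds nuclear RNA and chromatin, was at least 2.57-fold higher. Hnrnpl, a splicing regulator, was lower, with 154 in bone marrow, 114 with deltaNFAT and 119 with GFP, against 301 in Fos+/+ spleen and 224 in Fos-/- spleen. Snrpb and Srsf2, the brightest members, overlapped.

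Translation factors had 10 of 19 measured genes higher and 5 lower with a median of 0.29. On the spiked scale 5 (26.3%) were higher and 8 (42.1%) lower with a median of -0.05, against 7.85% and 37.2% of all genes. Eif3a, the largest subunit of initiation factor eIF3, read 278, 348 and 336 in the bone marrow, deltaNFAT and GFP arrays, against 41 and 34.1 in the Fos+/+ and Fos-/- spleen arrays, a gap of 6.78-fold. Eif3b and Eif3d, subunits of the same complex, went the other way. Eif3b read 207 in bone marrow, 198 with deltaNFAT and 129.5 with GFP, against 297 in Fos+/+ spleen and 356 in Fos-/- spleen, and Eif3d read 534, 523 and 606 in the bone marrow, deltaNFAT and GFP arrays, against 819 and 816 in the Fos+/+ and Fos-/- spleen arrays. Eif5, an initiation factor that prompts GTP hydrolysis, read 326 in bone marrow, 247 with deltaNFAT and 230.2 with GFP, against 94.8 in Fos+/+ spleen and 97.6 in Fos-/- spleen, a gap of 2.36-fold. Eef1a1, the elongation factor and the brightest member, read 4241, 4250.1 and 4719 in the bone marrow, deltaNFAT and GFP arrays, against 3775 and 3759.9 in the Fos+/+ and Fos-/- spleen arrays, higher by 1.12-fold on this scale and lower in all 3 on the spiked scale. Subunits of 1 complex thus differed in opposite directions within the same arrays.

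Chaperones showed the same mixture. Hsp90aa1, the inducible cytosolic Hsp90, read 798 in bone marrow, 679 with deltaNFAT and 592 with GFP, against 88.9 in Fos+/+ spleen and 60.1 in Fos-/- spleen, a gap of 6.66-fold. Hsp90b1, its counterpart in the endoplasmic reticulum, read 1033, 1066 and 1299 in the bone marrow, deltaNFAT and GFP arrays, against 229 and 205 in the Fos+/+ and Fos-/- spleen arrays, a gap of 4.52-fold. Dnaja1, a co-chaperone of Hsp70, read 243 in bone marrow, 179 with deltaNFAT and 194 with GFP, against 88.6 in Fos+/+ spleen and 104 in Fos-/- spleen. Hspa8, the constitutive Hsp70 and the brightest of the list, read 1902, 1753 and 1778 in the bone marrow, deltaNFAT and GFP arrays, against 1709.8 and 1763 in the Fos+/+ and Fos-/- spleen arrays, and overlapped. Over the 20 measured heat shock and folding genes 7 were higher and 2 lower (median 0.14). On the spiked scale 2 (10%) were higher and 8 (40%) lower (median -0.05), near the 7.85% and 37.2% of all genes. Of 23 genes of endoplasmic reticulum stress 6 were higher and 3 lower, with 4 and 6 on the spiked scale. Hspa5, the main chaperone of that compartment, read 684 in bone marrow, 839.7 with deltaNFAT and 666 with GFP, against 462 in Fos+/+ spleen and 412 in Fos-/- spleen, and Ddit3, a stress-induced transcription factor, read 48.6, 58.2 and 75 in the bone marrow, deltaNFAT and GFP arrays, against 28.3 and 23.3 in the Fos+/+ and Fos-/- spleen arrays.

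The proteasome was also divided. Of 27 measured genes 8 were higher and 7 lower, with a median of 0.03, against 3 higher and 15 lower on the spiked scale. Psmc6, an ATPase of the regulatory particle, read 691 in bone marrow, 698 with deltaNFAT and 652 with GFP, against 231 in Fos+/+ spleen and 204 in Fos-/- spleen, a gap of 2.83-fold. Psmb6 and Psmb4, subunits of the catalytic ring, were lower. Psmb6 read 209, 192 and 214 in the bone marrow, deltaNFAT and GFP arrays, against 404 and 306 in the Fos+/+ and Fos-/- spleen arrays, and Psmb4 read 628 in bone marrow, 674 with deltaNFAT and 684 with GFP, against 849 in Fos+/+ spleen and 846 in Fos-/- spleen.

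Energy metabolism was the list with the most lower members. Of 37 measured genes of oxidative phosphorylation 12 were lower and 1 was higher with a median of -0.23, and 23 (62.2%) were lower and 0 higher on the spiked scale, where 37.2% of all genes were lower. Without bone marrow 21 of 36 (58.3%) were lower, against 27.4% of all genes, and without Fos-/- spleen 27 of 37 (73.0%), against 28.7%. Without Fos+/+ spleen 12 of 37 (32.4%) were lower and 6 (16.2%) higher, near the 28.2% and 20.6% of all genes. The median was then -0.09, so the count turns in part on the Fos+/+ spleen array. Cox4i1, a subunit of cytochrome oxidase, read 103, 117 and 111 in the bone marrow, deltaNFAT and GFP arrays, against 290.3 and 254 in the Fos+/+ and Fos-/- spleen arrays, a gap of 2.17-fold. Another Cox4i1 probe set overlapped. Atp5d, a subunit of ATP synthase, read 218 in bone marrow, 132 with deltaNFAT and 122 with GFP, against 537 in Fos+/+ spleen and 384 in Fos-/- spleen, a gap of 1.76-fold, and its other probe set had a gap of 1.8-fold. Sdhc, a membrane anchor of succinate dehydrogenase, read 837, 619 and 657 in the bone marrow, deltaNFAT and GFP arrays, against 1184 and 996 in the Fos+/+ and Fos-/- spleen arrays. Uqcrb, a subunit of complex III, was the higher exception, with 428 in bone marrow, 397 with deltaNFAT and 446 with GFP, against 340.1 in Fos+/+ spleen and 212 in Fos-/- spleen. The Fos+/+ spleen array was the highest array for Sdhc and for the first Atp5d probe set. The other Atp5d probe set was highest in Fos-/- spleen, at 325 against 281 in Fos+/+ spleen. The summed intensity of the list was 20035, 17622 and 17820 in the bone marrow, deltaNFAT and GFP arrays, against 26574 and 19398 in Fos+/+ and Fos-/- spleen.

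Genes of the actin cytoskeleton leaned the same way, with 7 of 25 measured lower and 4 higher (median -0.23). Pfn1, the actin-binding protein profilin, read 239, 277 and 207 in the bone marrow, deltaNFAT and GFP arrays, against 675.7 and 384 in the Fos+/+ and Fos-/- spleen arrays, a gap of 1.39-fold. Tmsb4x, which sequesters actin monomers, was higher by 1.23-fold on this scale, but not on the spiked scale, where 17 genes of the list were lower and 0 higher. Tpm2, a tropomyosin of contractile cells, read 103 in bone marrow, 64.9 with deltaNFAT and 129.8 with GFP, against 248 in Fos+/+ spleen and 244 in Fos-/- spleen, a gap of 1.88-fold. In the V-ATPase list, the proton pump that acidifies lysosomes and the bone surface under osteoclasts, 3 of 14 (21.4%) were lower and 0 higher, against 16.4% lower over all genes. This count turns on the spleen arrays. Without Fos+/+ spleen 8 (57.1%) were higher and 3 (21.4%) lower (median 0.30), against 20.6% and 28.2% of all genes. Without Fos-/- spleen 0 were higher and 11 (78.6%) lower (median -0.57), against 23.8% and 28.7%. With quantile or median scaling 1 was lower.

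Fosl1 and Fosl2, relatives of Fos that also form AP-1, were lower. Fosl1 read 5.5, 30.5 and 8.9 in the bone marrow, deltaNFAT and GFP arrays, against 72.9 and 71.4 in the Fos+/+ and Fos-/- spleen arrays, a gap of 2.34-fold, and Fosl2 read 28.6 in bone marrow, 21.4 with deltaNFAT and 5.5 with GFP, against 89.6 in Fos+/+ spleen and 52.2 in Fos-/- spleen, a gap of 1.83-fold. Over the 25 measured AP-1 and immediate early genes 3 (12%) were higher and 4 (16%) lower, near the 15.2% and 16.4% of all genes. On the spiked scale 0 were higher and 7 (28%) lower, against 7.85% and 37.2% of all genes. In the NFAT and calcineurin list 2 of 8 were higher and 0 lower. Ppp3ca, the catalytic subunit of the phosphatase calcineurin that activates NFAT, read 285, 351 and 328 in the bone marrow, deltaNFAT and GFP arrays, against 120.2 and 146 in the Fos+/+ and Fos-/- spleen arrays, a gap of 1.95-fold, and Nfatc3 read 101 in bone marrow, 95.7 with deltaNFAT and 105 with GFP, against 62.2 in Fos+/+ spleen and 60.2 in Fos-/- spleen, a gap of 1.54-fold. On the spiked scale 2 of 9 were higher and 2 lower.

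Further genes of signalling and the cell cycle fell on either side. Cxcl13, a chemokine that attracts B cells, read 1155, 917 and 971 in the bone marrow, deltaNFAT and GFP arrays, against 230.3 and 371 in the Fos+/+ and Fos-/- spleen arrays, a gap of 2.47-fold, and was the 1 higher member among 20 measured chemokine and cytokine genes. Map3k7, the kinase TAK1 that acts downstream of RANK, read 55.2 in bone marrow, 59 with deltaNFAT and 53.5 with GFP, against 25.4 in Fos+/+ spleen and 21.6 in Fos-/- spleen, a gap of 2.11-fold. Tk1, a thymidine kinase of dividing cells, was 2.46-fold lower, with 18.5, 19.1 and 36.2 in the bone marrow, deltaNFAT and GFP arrays, against 101 and 89.1 in the Fos+/+ and Fos-/- spleen arrays. Of 29 measured proliferation genes 2 were lower and 0 higher, and Pcna, the brightest, overlapped. Tfrc, the transferrin receptor of erythroid and dividing cells, read 926 in bone marrow, 866 with deltaNFAT and 848 with GFP, against 566 in Fos+/+ spleen and 562 in Fos-/- spleen. A control probe set for the 3′ end of the same transcript read 263, 230.0 and 188 in the bone marrow, deltaNFAT and GFP arrays, against 89.4 and 49.9 in the Fos+/+ and Fos-/- spleen arrays, a gap of 2.1-fold.

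Of the markers of other blood cells on the array, 7 of 18 T and NK cell genes, 12 of 16 B cell and plasma cell genes, 8 of 13 erythroid and 4 of 6 platelet genes were above the floor on at least 1 array. Of the 7 T and NK cell genes 0 were higher and 1 (Gzmb, a granule protease) was lower. Among 12 B cell and plasma cell genes 2 were higher and 1 lower, and Pax5, the B cell factor, overlapped. Among 8 erythroid genes 2 were higher, and among 4 platelet genes Gp9, a chain of the von Willebrand factor receptor, was higher, with 164 in bone marrow, 102 with deltaNFAT and 91.7 with GFP, against 33.4 in Fos+/+ spleen and 45.6 in Fos-/- spleen. The medians of these lists on the log2 scale were 0.09, -0.17, 0.27 and 0.38 for T and NK, B, erythroid and platelet genes, and only the last stayed above 0 on the spiked scale. Summed intensity was 211 to 393 in the bone marrow and virus arrays and 239 to 521 in uninfected spleen for T and NK genes, 1658 to 1903 and 1477 to 1567 for B cell genes, 1450.1 to 1787 and 1079 to 1195 for erythroid genes, and 152 to 275 and 71.6 to 95.8 for platelet genes. The part of these cells in the other results was not tested.

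**Figure D4:**
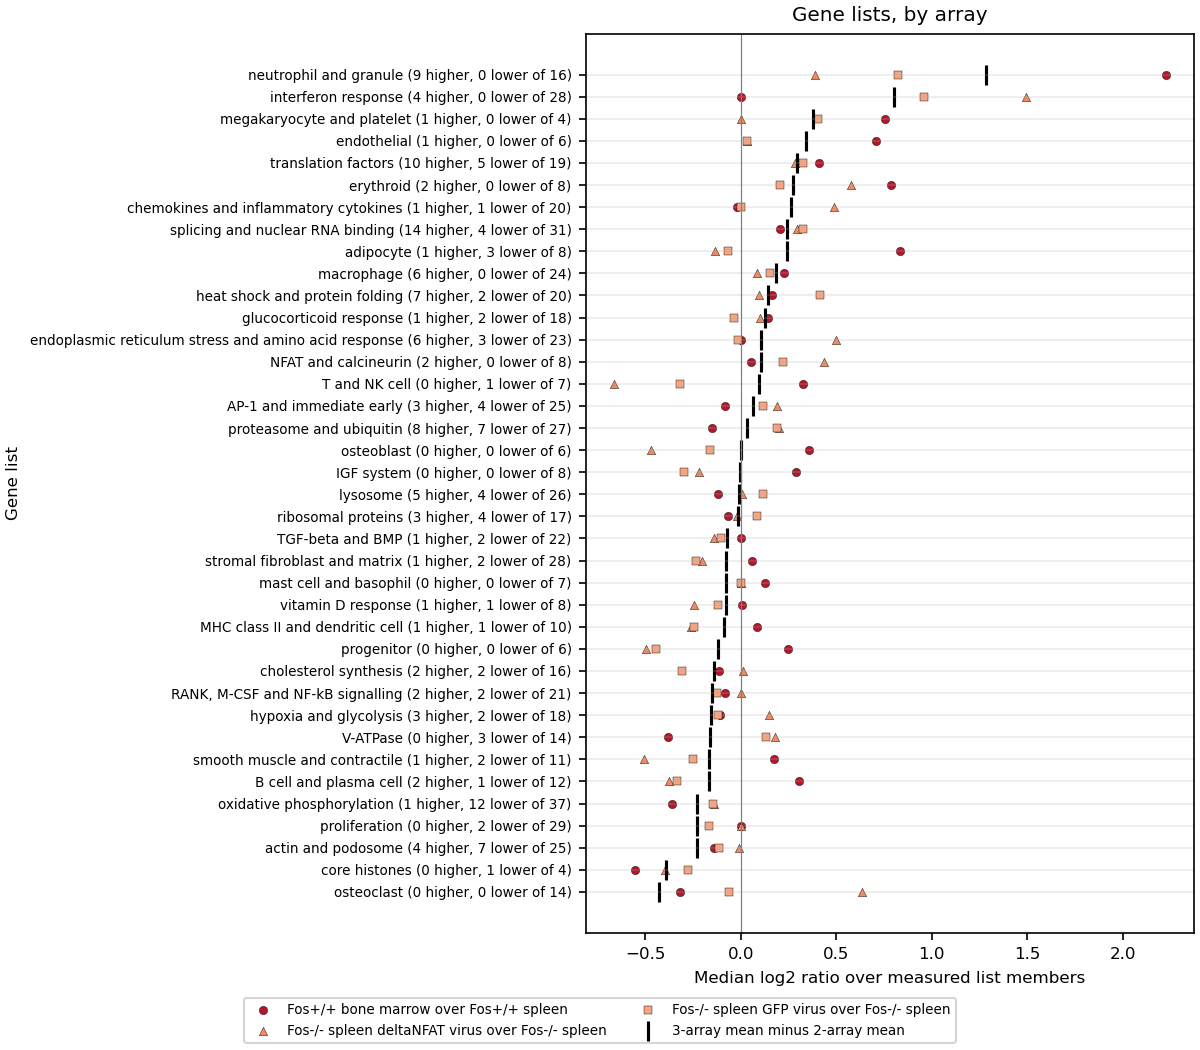
Median log2 ratio of each of the 38 gene lists over its measured members. Red circles, triangles and squares are bone marrow, deltaNFAT and GFP over the uninfected spleen of the same Fos genotype, and the bar is the 3-array mean minus the 2-array mean. The granule list has the highest median (1.28) and osteoclast genes the lowest (-0.43), and bone marrow and the virus arrays part in the interferon list.

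Higher genes were long and lower genes short in the genome. The span of a gene, from its first to its last transcribed base in RefSeq (GRCm38.p6), was known for 6388 of the 6397 genes. Its median was 45.4 kb for genes higher by 2-fold and 31.7 kb for genes higher by less. It was 12.1 kb for genes lower by less and 14.7 kb for the 26 genes lower by 2-fold. Genes counted in neither direction had a median of 19.01 kb, against 19.5 kb over all genes. In 5 equal groups of genes by span, 6.18, 9.08, 14.5, 21.8 and 24.2% were higher, and 22.2, 23.0, 17.1, 11.4 and 8.37% were lower, from the shortest group to the longest. Among genes reaching 40 on all 5 arrays the shortest group had 7.35% higher and 29.5% lower and the longest 29.0% higher and 12.6% lower. Across 6388 genes, which share the same 5 arrays and are not independent, Spearman's rho of the set difference with span was 0.24.

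**Figure D5:**
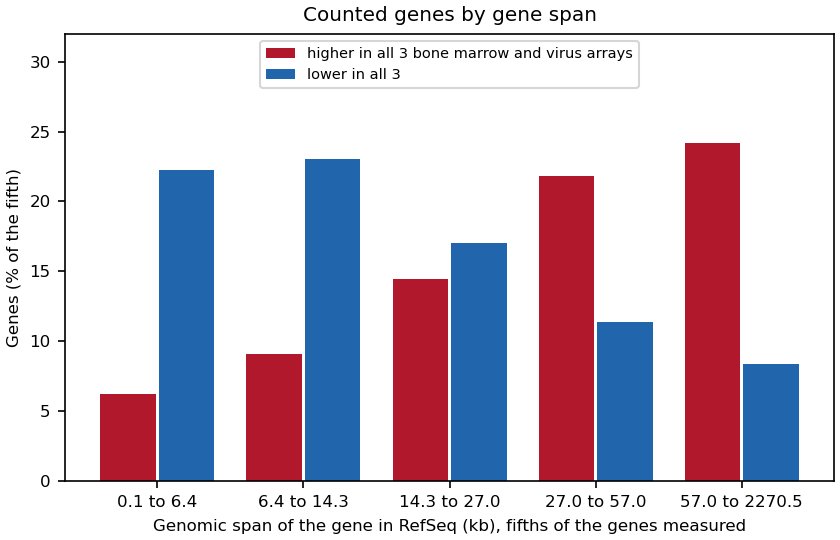
Percentage of genes higher (red) and lower (blue) in all 3 bone marrow and virus arrays, in 5 equal groups of the 6388 genes by genomic span in RefSeq. The higher share was 6.18% in the shortest group and 24.2% in the longest, and the lower share was 22.2% and 8.37%.

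Promoters were read to ask whether sequence at the start site also parted the groups. RefSeq promoters, from 250 bases before to 50 after the start, were matched for 5141 genes, 80.4% of those measured. Their median GC content was 62.3% for higher genes and 61.2% for lower genes, against 60.3% over all genes. It was 64.0% for genes higher by 2-fold and 56.2% for genes lower by 2-fold, of which only 16 had a promoter. Spearman's rho of the set difference with GC content was -0.01 across these genes. Letter motifs, searched on both strands and not exclusive of one another, had similar shares in the higher and the lower genes. GGGCGG was present in 70.3% of higher and 72.1% of lower genes, against 66.6% of all measured genes. CCAAT was present in 38.9% and 41.9%, against 42.8%. TATAAA was present in 8.86% and 9.28%, against 11.1%. TGANTCA, the letters of the AP-1 element, was present in 7.06% and 8.48%, against 7.22%. CCGGAAG was present in 21.95% and 22.2%, against 19.4%. In these shares a gene was counted when any of its promoters held the motif. Over all 32851 promoters of the table, counted one by one, the shares of these motifs were 35.7, 37.4, 13.6, 7.81 and 8.86%. The shares by gene and by promoter differ in unit and cannot be compared directly.

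The promoters shown are, in each direction, the pair with the largest gaps among genes whose brightest probe set is unsuffixed and that have exactly 1 entry in the promoter table used. They are given to show how unlike one another they are within a direction. CG pairs are in capitals, each sequence runs 5′ to 3′ on the gene's strand, and positions are in GRCm38.p6. The Ogn promoter lies at chr13:49607765-49608064 on the plus strand and holds 4 CG pairs at 42.3% GC. The Dek promoter lies at chr13:47106172-47106471 on the minus strand and holds 44 CG pairs at 75.7% GC. The Notch3 promoter lies at chr17:32166841-32167140 on the minus strand and holds 25 CG pairs at 70.0% GC. The Arfgap2 promoter lies at chr2:91264865-91265164 on the plus strand and holds 21 CG pairs at 61.3% GC. Ogn and Dek, both higher, stand at opposite ends in CG content.
Ogn: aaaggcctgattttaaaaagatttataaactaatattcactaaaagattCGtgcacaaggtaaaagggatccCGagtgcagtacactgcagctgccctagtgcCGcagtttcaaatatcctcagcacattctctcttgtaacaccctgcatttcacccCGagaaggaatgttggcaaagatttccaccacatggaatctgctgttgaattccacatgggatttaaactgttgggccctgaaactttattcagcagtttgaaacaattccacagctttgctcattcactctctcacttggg
Dek: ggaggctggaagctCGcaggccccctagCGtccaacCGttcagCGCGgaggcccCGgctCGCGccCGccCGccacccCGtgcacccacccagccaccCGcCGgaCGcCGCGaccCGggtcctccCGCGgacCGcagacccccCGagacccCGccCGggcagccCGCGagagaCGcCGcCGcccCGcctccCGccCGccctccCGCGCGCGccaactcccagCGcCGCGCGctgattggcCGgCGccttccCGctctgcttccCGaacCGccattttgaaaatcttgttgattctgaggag
Notch3: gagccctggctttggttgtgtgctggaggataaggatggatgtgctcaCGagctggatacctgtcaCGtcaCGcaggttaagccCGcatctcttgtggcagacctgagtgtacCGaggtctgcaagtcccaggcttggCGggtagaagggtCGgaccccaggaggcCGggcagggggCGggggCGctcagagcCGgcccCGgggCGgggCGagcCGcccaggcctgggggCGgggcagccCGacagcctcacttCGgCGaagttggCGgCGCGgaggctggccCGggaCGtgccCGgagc
Arfgap2: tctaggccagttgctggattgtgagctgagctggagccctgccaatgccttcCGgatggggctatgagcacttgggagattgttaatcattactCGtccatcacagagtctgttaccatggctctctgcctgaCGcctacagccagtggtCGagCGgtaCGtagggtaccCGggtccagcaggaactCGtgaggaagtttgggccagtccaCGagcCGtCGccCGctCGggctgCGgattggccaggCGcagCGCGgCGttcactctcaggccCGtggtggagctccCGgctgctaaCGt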

How the data were processed

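RNA from 5 mouse co-cultures had been hybridised to 1 oligonucleotide array each. For every array the authors deposited linear intensities, 1 per probe set, and how these were made was not given in the sources used here. Deposited intensities have equal trimmed means (2% off each end), 20.3 to 22.4% of an array is at or below 0, and the number of arrays limits the precision. Each array was brought to 1 trimmed mean, which changed values negligibly, floored at 20 and taken to log2. Groups came from sample titles, and 0 columns were unmapped. Gene symbols came from the platform annotation, where 10855 probe sets had 1 symbol, 396 several and 1237 none. RefSeq (GRCm38.p6) gave spans and promoters. No test was run. Named were the 14 largest gaps each way with other probe sets of those genes, the 6 largest with the dimmer side above the floor and the brighter at 200 or more, Fos, Nfatc1, up to 4 non-overlapping and 2 bright members per list, and the spiked controls. Any other named gene was chosen after its values were seen. The comparison, members and lists were chosen with earlier results of these data known. Alternatives were other floors, quantile, spiked-control and median scaling, probe set choice and leaving out each array. The counting was tested on simulated data. Python 3.11.15, numpy 2.4.6, pandas 2.3.3 and matplotlib 3.10.9 were used.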

Additional observations from a re-analysis of the deposited data

Results flagged for a closer look

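The following probe sets lie outside the gene counts, were above the floor on every array and were higher in all 3 bone marrow and virus arrays. The ratio of set means was 1.385 for BioC-3, 1.232 for BioC-5, 1.129 for BioDn-3, 1.503 for BioDn-5, 1.215 for CreX-3 and 1.292 for CreX-5. The antisense versions of 3 spiked controls gave 1.566 (BioB-5), 1.597 (BioDn-5) and 1.571 (CreX-5). CreX-5 read 1902, 1925 and 1966 in the bone marrow, deltaNFAT and GFP arrays, against 1476 and 1514 in the Fos+/+ and Fos-/- spleen arrays. Among controls for mouse transcripts the ratio was 1.071 for the 5′ and 1.038 for the middle probe set of beta-actin, 1.213 for the B2 repeat and 3.364 for the 3′ end of the transferrin receptor. The B2 repeat, a short interspersed element copied many times in the mouse genome, read 4098, 4265 and 4870.0 in the bone marrow, deltaNFAT and GFP arrays, against 3838 and 3426 in the Fos+/+ and Fos-/- spleen arrays.

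Probe sets without a single gene symbol were not used in the gene counts. Of 741 that reached 40 in at least 1 array, 26 (3.51%) were higher in all 3 by 2-fold and 2 were lower by 2-fold, against 4.04% and 0.457% of probe sets with 1 symbol.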

How the results depend on the processing

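Counts kept their order of size by direction only in part. In the main count 1161 were higher and 1184 lower. More were higher than lower at a floor of 10 (1432 against 1295) and with median scaling (1197 against 1104). On the floor, 487 probe sets were higher and 665 lower at 80, 169 higher by 2-fold at 40 and 84 at 80, and 47, 13 and 6 lower by 2-fold at 10, 40 and 80. Fewer probe sets can be counted at a higher floor. Scaling to the spiked controls gave 587 higher, 2696 lower, 162 higher by 2-fold and 83 lower by 2-fold, and 5 of 38 lists with a median above 0, against 17, and averaging the probe sets of a gene gave 11. The cause was not tested. Leaving out 1 array at a time gave 1363 to 1771 higher, 1378 to 2096 lower, 296 to 467 higher by 2-fold and 49 to 169 lower by 2-fold, where fewer arrays have to agree, and 14 to 23 lists above 0. The 2-fold higher count passed 1.5 times the main value without bone marrow (402) or without Fos-/- spleen (467), and the 2-fold lower count passed it whichever array was left out.

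On the spiked scale Acta2, Hk1, Eef1a1, Pabpc1 and Actg1 turned to lower in all 3, with log2 gaps of -0.12, -0.13, -0.0821, -0.0274 and -0.18. With 1 array left out the osteoclast median ran from -1.84 (without Fos-/- spleen) to 0.82 (without Fos+/+ spleen), with 0.26 without GFP, and the endothelial median from -0.0225 (without bone marrow) to 0.52 (without deltaNFAT). Of 82 named probe sets counted as higher, 33 were kept under every alternative and 52 under all but the floors. Of 59 counted as lower these numbers were 33 and 51. No paired analysis was possible because each condition has 1 array. Intensities near the floor limit what can be read of dim genes.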

Other observations

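Genes that respond to the hormones of the medium were mostly counted in neither direction. Fkbp5, which glucocorticoids induce, read 691, 907 and 931 in the bone marrow, deltaNFAT and GFP arrays, against 651 and 1037 in the Fos+/+ and Fos-/- spleen arrays, and overlapped. Cyp24a1, the vitamin D-degrading enzyme that vitamin D induces, was lower, with 513 in bone marrow, 354 with deltaNFAT and 259.8 with GFP, against 605 in Fos+/+ spleen and 817 in Fos-/- spleen, a gap of 1.18-fold. Mt1, a metallothionein, was lower as well, with 1555, 1522 and 989.9 in the bone marrow, deltaNFAT and GFP arrays, against 2377 and 1749 in the Fos+/+ and Fos-/- spleen arrays, a gap of 1.12-fold. Of 18 measured glucocorticoid-response genes 1 was higher and 2 lower, and of 8 vitamin D-response genes 1 was higher and 1 lower. The higher genes were Lcn2 and Camp, both also members of the granule list. The gap of Camp was 1.05-fold and was lost on the spiked scale.

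The ribosomal protein list summed to between 37438 and 41348 in the 5 arrays, but not every member was bright. Rps29 read 29.9 with deltaNFAT and 114 with GFP. Of 17 measured ribosomal protein genes, from 20 on the array, 3 were higher and 4 lower, with a median of -0.02. On the spiked scale 0 were higher and 14 (82.4%) lower, against 37.2% lower over all genes. Rpl13a read 235 in bone marrow, 231 with deltaNFAT and 225 with GFP, against 358 in Fos+/+ spleen and 316 in Fos-/- spleen, a gap of 1.35-fold. Vegfa, a growth factor for vessels that low oxygen induces, read 145, 183 and 184 in the bone marrow, deltaNFAT and GFP arrays, against 75.5 and 107 in the Fos+/+ and Fos-/- spleen arrays, a gap of 1.36-fold, while Pfkl, a glycolytic enzyme, read 375 in bone marrow, 283 with deltaNFAT and 256 with GFP, against 492 in Fos+/+ spleen and 429 in Fos-/- spleen and was lower. Of 26 measured lysosome genes 5 were higher and 4 lower. The enzymes Naglu and Gusb were lower in all 3, with gaps of 1.26-fold and 1.2-fold, and Lamp2, a membrane protein of lysosomes, was higher by 1.19-fold, a gap lost on the spiked scale.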
